A study of Mus musculus with 16 samples.

Results

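The IL6-family cytokine pathway was followed in mouse quadriceps through 10 of the 41388 genes of the count table. They are *Lif*, the receptor genes *Il6ra*, *Osmr*, *Lifr* and *Il6st*, the kinase genes *Jak1* and *Jak2*, *Stat3*, and the inhibitor genes *Socs1* and *Socs3*. The genes were selected by symbol, and the set was built around the higher level of *Socs3* in tamoxifen-treated *Mtm1* KO muscle, so that difference and all other tamoxifen effects on the 10 genes are given as descriptions with no test. All 10 genes passed the filter on low counts in every comparison.

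Cytokines of the IL6 family, which include IL6, LIF and oncostatin M, signal through receptors that share the subunit gp130, encoded by *Il6st*. Ligand binding activates JAK kinases attached to the receptor tails, which phosphorylate the transcription factor STAT3. STAT3 then moves to the nucleus and switches on target genes, among them *Socs3*, whose product binds gp130 and JAKs and shuts the signal down. In skeletal muscle the pathway is known from exercise, regeneration and wasting.

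The mice were C57BL/6 per the labels, of the J substrain per the methods, and 36 days old per the labels, while the supplement of the study gives a slightly younger age and littermates as the source. The *Mtm1* KO animals carried a deletion of exon 4 of *Mtm1*, the gene for the lipid phosphatase myotubularin. Its loss causes a severe myopathy. Tamoxifen, a modulator of the estrogen receptor, was given in chow at 40 mg/kg from day 21, until day 36 or an earlier endpoint. The groups were untreated wild type (WT), wild type with tamoxifen (WT + TAM), untreated *Mtm1* KO, and *Mtm1* KO with tamoxifen (KO + TAM), with 4 deposited libraries each.

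Of the 16 libraries, 14 were used, namely 3 WT, 4 WT + TAM, 3 *Mtm1* KO and 4 KO + TAM, with 25702605 to 29847222 counts each. The other two, labelled WT replicate 1 and KO replicate 12, stood apart and had been left out by the authors as well. Their median correlations with their own group were 0.959 and 0.967, against at least 0.981 for the others. *Mtm1* stood at 3.82 CPM (counts scaled to a common library size, with TMM factors) in the library labelled WT replicate 1. WT replicates 2 to 4 had 13.6 to 14.4 CPM and the *Mtm1* KO libraries used 2.06 to 2.49. For *Mtm1*, this library thus lay nearer *Mtm1* KO than WT. Other genes went either way in it, with *Timp1* nearer *Mtm1* KO, at 25.3 CPM, and *Stat5b* and *Cxcl10* nearer WT, at 178 and 0.103. In the libraries used, *Mtm1* was lower in *Mtm1* KO than in WT by a log2 fold change of -2.56 (SE 0.17, adjusted p = 2.14e-04, quasi-likelihood test of edgeR, Benjamini-Hochberg adjusted), and with tamoxifen by -2.52 (SE 0.20, adjusted p = 5.38e-05, same test). All 9 skeletal muscle markers were detected, and their summed level, led by the actin gene *Acta1*, was 64856 to 113908 RPKM (reads scaled to gene length and library total).

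Because the set turns on *Socs3*, a stretch upstream of its RefSeq start is shown. It runs on the minus strand of chromosome 11 in GRCm38.p6, chr11:117969452-117969616, and is taken from the RefSeq promoter table. Capitals mark the only match in it to TTCNNNGAA, the letters to which STAT dimers are known to bind.

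*Socs3* upstream: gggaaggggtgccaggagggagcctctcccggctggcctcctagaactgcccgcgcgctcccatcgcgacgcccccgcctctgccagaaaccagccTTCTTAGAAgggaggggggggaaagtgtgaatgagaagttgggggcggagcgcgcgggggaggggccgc

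The match, at bases 117969512 to 117969520, lay 146 to 154 bases before the RefSeq start of *Socs3* and 326 to 334 bases before the start of its coding transcript in GENCODE. The stretch ends at the exon of a noncoding *Socs3* transcript, which covers bases 117969375 to 117969451. With all its transcripts, *Socs3* spans bases 117966079 to 117970047 in GENCODE, so the stretch lies within the annotated gene. Both motifs searched read the same on either strand. Among the 11 promoter windows of 250 bases of the 10 genes, TTCNNNGAA was found in 1, that of *Socs3*, while 7.02% of 32851 mouse promoter windows held it. For *Socs3* the window ended at the RefSeq start, so the bases from there to the start of the coding transcript were not searched. The AP-1 letters TGANTCA were found only before *Lif*, and in 6.75% of all windows. A match of letters is a description and does not show that a factor binds there.

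*Socs3* was expressed at a similar level in 3 of the 4 groups and stood higher in KO + TAM. Its CPM was 5.10, 8.59 and 6.24 in WT, and 8.18, 5.87, 8.48 and 6.65 in WT + TAM. In *Mtm1* KO it was 8.35, 6.29 and 5.32. In KO + TAM it was 19.6, 16.3, 31.3 and 19.5, from 541 to 1116 reads per library. All 4 KO + TAM libraries lay above every other library, the highest of which reached 8.59. For WT the group mean was 6.65 ± 1.78 (SD, n = 3) and for WT + TAM it was 7.30 ± 1.24 (SD, n = 4). For *Mtm1* KO it was 6.65 ± 1.55 (SD, n = 3), and these groups did not differ beyond their spread. The mean of KO + TAM was 21.7 ± 6.62 (SD, n = 4).

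With tamoxifen the log2 difference of *Socs3* was 1.69 (SE 0.23, 3.23-fold) in *Mtm1* KO and 0.14 (SE 0.22) in WT. The difference of these effects was 1.57 (SE 0.34), and KO + TAM exceeded WT + TAM by 1.57 (SE 0.21). None of these 4 values carries a test, since they chose the gene. Across all genes, KO + TAM against *Mtm1* KO gave 0 calls of 15062 at an adjusted p of at most 0.01 with edgeR, 1137 at an unadjusted p of at most 0.05, 72 calls with DESeq2, and 0 with limma on log2 RPKM at either pseudocount. WT + TAM against WT gave 19 calls of 14544 with edgeR. Without each library in turn, the *Socs3* difference in *Mtm1* KO ran from 1.46 to 1.89. In the libraries left out, *Socs3* was 1.96 CPM in the one labelled WT replicate 1 and 5.33 in KO replicate 12.

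**Figure D1:**
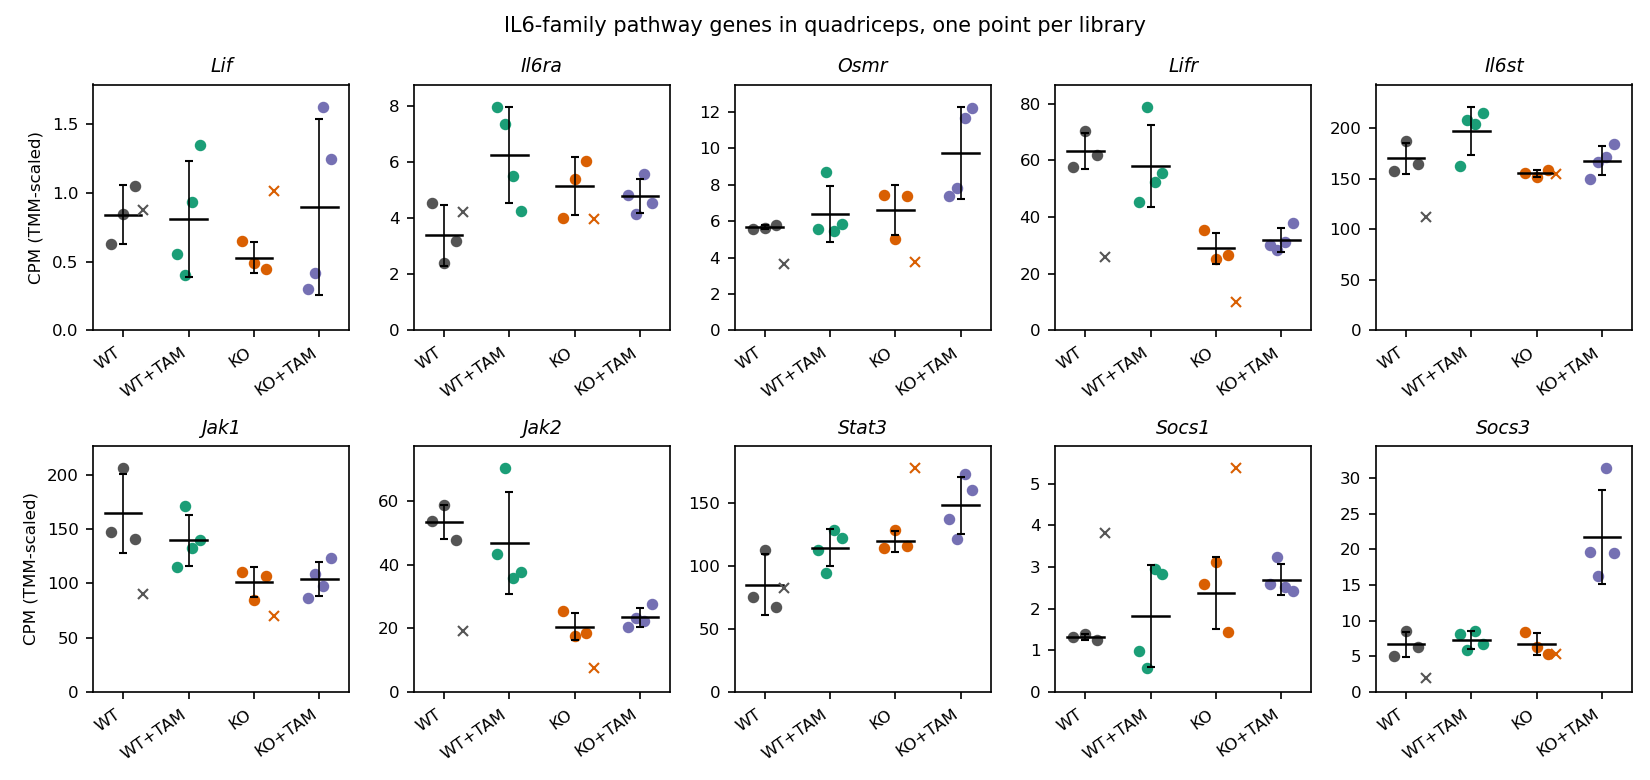
CPM (TMM-scaled) of the 10 genes in each library, by group. Filled points are the 14 libraries used, bars and whiskers their mean and SD, and crosses the left-out libraries, labelled WT replicate 1 or KO replicate 12. *Socs3* lies between 16.3 and 31.3 in KO + TAM and at or below 8.59 elsewhere, and *Jak2* and *Lifr* are lower in both *Mtm1* KO groups.

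Compared per length, the pathway genes spanned a wide range of levels in quadriceps. The mean RPKM over the 14 libraries was 17.5 for *Jak1*, 15.9 for *Il6st*, 12.9 for *Stat3*, 6.98 for *Jak2*, 4.33 for *Lifr*, 4.07 for *Socs3*, 1.79 for *Socs1*, 1.52 for *Il6ra*, 0.620 for *Osmr* and 0.184 for *Lif*. *Jak1* was above *Il6st* in only 8 of 14 libraries, so this pair was not separated. *Jak2* over *Lifr*, *Il6ra* over *Osmr* and *Osmr* over *Lif* held in 14 of 14, and the other neighbouring pairs in 10 to 12 of 14. *Il6st*, for the common subunit, was at least 13.1 RPKM in every library, above *Lifr*, *Osmr* and *Il6ra*, which reached at most 7.08.

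The question put to the comparison of *Mtm1* KO with WT was which of these genes differ in untreated muscle. With edgeR and TMM scaling, *Jak2* and *Lifr* were lower in *Mtm1* KO, to less than 0.5 of the WT level, and none of the 10 was called higher. Over the alternatives run, the log2 fold change ran from -1.53 to -0.914 for *Jak2* and from -1.26 to -0.645 for *Lifr*. *Jak2* encodes a kinase that also serves growth hormone and erythropoietin receptors, and *Lifr* the receptor subunit that binds LIF and pairs with gp130. The 2 of 10 genes called, both lower, stand beside 3.6% of 14740 genes called in all, 1.69% lower and 1.91% higher, at an adjusted p of at most 0.01. The untreated libraries of this comparison are also the reference of the tamoxifen contrasts.

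*Jak2* was 53.6, 58.6 and 47.9 CPM in WT and 25.5, 17.7 and 18.5 in *Mtm1* KO. The groups did not overlap, and the log2 fold change was -1.35 (SE 0.17, 0.391-fold, adjusted p = 0.00203, edgeR's quasi-likelihood test). *Lifr* was 57.6, 70.3 and 62.0 CPM in WT and 35.3, 25.2 and 26.5 in *Mtm1* KO. Its groups did not overlap either, with a log2 fold change of -1.10 (SE 0.16, 0.465-fold, adjusted p = 0.00421, same test). The share of all genes without overlap is not given for this comparison, so the lack of overlap is only a description. The library labelled WT replicate 1 lay in the *Mtm1* KO range for both genes, at 19.1 CPM for *Jak2* and 26.0 for *Lifr*. KO replicate 12 was lower still, at 7.37 and 9.91. These left-out libraries, of either label, also lay below every library used for *Col3a1*, at 580 and 447 CPM. For *Hbb-bs* they lay above every library used, at 188 and 119. What set them apart was not tested. With both libraries added the log2 fold changes were -1.35 and -1.13, and neither call held (adjusted p = 0.0836 for *Jak2* and 0.123 for *Lifr*, edgeR). *Jak2* also lost its call without KO replicate 11 (adjusted p = 0.0112, edgeR). *Lifr* lost it without WT replicate 3 (adjusted p = 0.0155), WT replicate 4 (0.0174), KO replicate 10 (0.0136) or KO replicate 11 (0.0204).

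The summed level of the 9 skeletal muscle markers moved with these genes, at 96132 to 113908 RPKM in WT and 71681 to 78412 in *Mtm1* KO. Of the markers, 7 had lower values and 2 higher ones, none called with edgeR (7 at an unadjusted p of at most 0.05, and 7 calls with DESeq2), and their part in the result was not tested. Among all 14740 genes, 4431 had that unadjusted p and DESeq2 called 1678. The summed endothelial markers overlapped between the groups, at 55.9 to 95.3 RPKM in WT and 61.8 to 90.4 in *Mtm1* KO. In bulk muscle, fewer cells of a type and less RNA per cell cannot be told apart.

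The other 8 genes were not called between *Mtm1* KO and WT with edgeR, though 3 had an unadjusted p of at most 0.05 and DESeq2 called 1. Over all 14740 genes, 4431 had that unadjusted p and DESeq2 called 1678. *Jak1*, the kinase on which gp130 most depends, was 147, 206 and 140 CPM in WT and 110, 84.9 and 107 in *Mtm1* KO. Its groups did not overlap, and its log2 fold change of -0.68 (SE 0.18) had an adjusted p of 0.0385 with edgeR and 0.00311 with DESeq2. *Stat3* was 75.1, 113 and 67.2 CPM in WT and 114, 129 and 116 in *Mtm1* KO, a log2 fold change of 0.52 (SE 0.19, adjusted p = 0.108, edgeR). *Socs1*, which encodes an inhibitor that blocks JAK kinases directly, was 1.33, 1.40 and 1.25 CPM in WT and 2.59, 3.11 and 1.43 in *Mtm1* KO. Its log2 fold change was 0.87 (SE 0.36, adjusted p = 0.141, edgeR). The *Stat3* and *Socs1* values of the *Mtm1* KO libraries all lay above those of WT, by a narrow margin. Without the share of all genes that did so, the separation of *Jak1*, *Stat3* and *Socs1* is only a description.

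*Il6ra*, the IL6-binding receptor chain, was 4.54, 2.41 and 3.20 CPM in WT and 4.03, 5.40 and 6.05 in *Mtm1* KO. *Osmr*, the oncostatin M receptor chain, was 5.58 to 5.81 CPM in WT and 5.01 to 7.43 in *Mtm1* KO. *Il6st* was 158 to 188 and 152 to 159 CPM. *Lif*, the single ligand of the set, was read at 14 to 27 counts per library in these groups and stood at 0.628 to 1.05 and 0.446 to 0.655 CPM. The groups overlapped for each of these 4 genes, and their log2 fold changes ran from -0.64 for *Lif* (SE 0.44, adjusted p = 0.360) to 0.63 for *Il6ra* (SE 0.28, adjusted p = 0.170, edgeR). *Socs3* differed by 0.03 (SE 0.25, adjusted p = 0.958, edgeR), a value whose sign turned when single libraries were left out.

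With tamoxifen in both genotypes, *Jak2* and *Lifr* were again lower in KO + TAM than in WT + TAM. *Socs3* has no test in this comparison, which leaves 9 genes, of which 2 were called, both lower. Over all genes 6.72% of 14563 were called, 3.3% lower and 3.42% higher. *Jak2* was 43.2, 70.2, 35.7 and 37.6 CPM in WT + TAM and 20.3, 23.3, 22.3 and 27.6 in KO + TAM, a log2 fold change of -0.995 (SE 0.20, adjusted p = 0.00740, edgeR). *Lifr* was 45.4, 78.9, 52.3 and 55.5 CPM in WT + TAM and 30.04, 28.3, 31.3 and 37.8 in KO + TAM, a log2 fold change of -0.86 (SE 0.17, adjusted p = 0.00576, edgeR). For both genes every KO + TAM library lay below every WT + TAM library, a description given without the share of all genes that did so. Both calls were lost with library size alone as the scaling (adjusted p = 0.0230 and 0.0252) and without KO + TAM replicate 13, 14 or 15 (adjusted p from 0.0208 to 0.0310, edgeR). *Jak2* was also lost without WT + TAM replicate 5 (0.0111) or KO + TAM replicate 16 (0.0108), and *Lifr* without WT + TAM replicate 7 (0.0114) or 8 (0.0141).

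Of the 7 other genes with a test, none was called between KO + TAM and WT + TAM with edgeR or DESeq2, and 3 had an unadjusted p of at most 0.05 with edgeR. Over all 14563 genes, 4700 had that unadjusted p and DESeq2 called 1995. *Stat3* was 112, 94.5, 128 and 123 CPM in WT + TAM and 138, 122, 173 and 160 in KO + TAM, with overlapping groups and a log2 fold change of 0.37 (SE 0.14, adjusted p = 0.0884, edgeR). *Osmr* was 5.55, 8.69, 5.46 and 5.85 CPM against 7.36, 7.81, 11.7 and 12.2, a log2 fold change of 0.61 (SE 0.22, adjusted p = 0.0789). *Jak1* stood at -0.42 (SE 0.15, adjusted p = 0.0725). The values for *Socs1*, *Il6ra*, *Il6st* and *Lif* were 0.56, -0.39, -0.23 and 0.16, with adjusted p-values from 0.209 to 0.876. The sign for *Il6st* turned to 0.05 with library size alone as the scaling, and in untreated mice from -0.10 to 0.21.

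**Figure D2:**
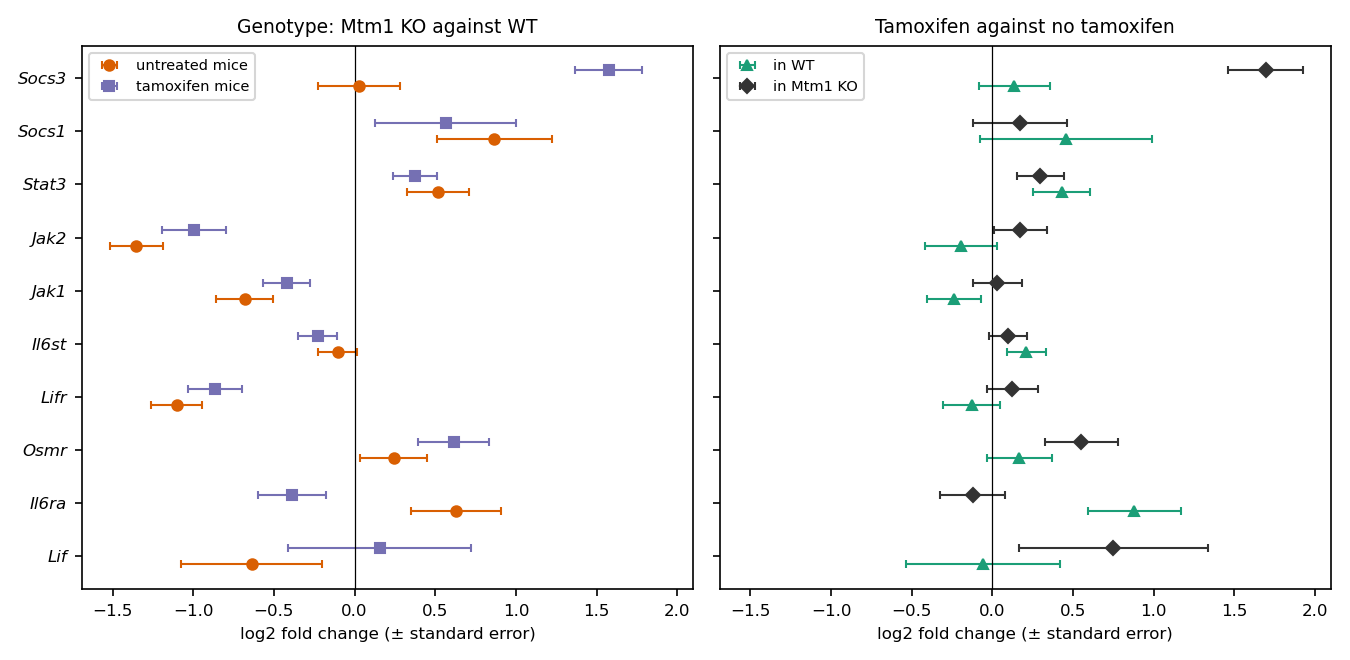
Log2 fold changes with their standard errors for the 10 genes, with *Mtm1* KO against WT in untreated and in tamoxifen-treated mice on the left, and tamoxifen against no tamoxifen in WT and in *Mtm1* KO on the right. *Jak2* and *Lifr* lie near or below -0.86 in both genotype comparisons, and *Socs3* stands at 1.69 with tamoxifen in *Mtm1* KO and 0.14 in WT.

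Beside *Socs3*, no gene of the set separated KO + TAM from *Mtm1* KO. This makes 1 of 10 genes whose groups did not overlap, against 7.57% of 15062 genes, and the one is the gene the set was built on. The log2 differences of the other 9 genes ran from -0.12 for *Il6ra* (SE 0.20) to 0.75 for *Lif* (SE 0.58). *Lif* was 0.655, 0.491 and 0.446 CPM in *Mtm1* KO and 0.300, 0.421, 1.63 and 1.25 in KO + TAM, from as few as 9 counts, so that replicates 15 and 16 were high and the other two low. *Osmr* was 7.43, 5.01 and 7.36 CPM in *Mtm1* KO, below 3 of the 4 KO + TAM libraries, at 0.55 (SE 0.23). *Stat3* differed by 0.30 (SE 0.14). *Jak2* and *Lifr*, the genes lower in *Mtm1* KO, differed by 0.17 (SE 0.16) and 0.12 (SE 0.16), which became 0.43 and 0.38 with KO replicate 12 added.

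In WT, none of the 10 genes separated WT + TAM from WT, against 11.6% of 14544 genes. The value farthest from 0 was that of *Il6ra*, at 0.88 (SE 0.29), with 4.54, 2.41 and 3.20 CPM in WT and 7.97, 7.36, 5.50 and 4.25 in WT + TAM. The highest WT library lay above the lowest WT + TAM library. *Stat3* stood at 0.43 (SE 0.18), *Socs1* at 0.46 (SE 0.53) and *Il6st* at 0.21 (SE 0.12). The tamoxifen contrasts in *Mtm1* KO and in WT share no library.

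*Osmr* and *Lifr* both pair with gp130, and in mice oncostatin M signals mainly through the former and LIF through the latter. Their ratio within a library is free of the scaling factor. It was chosen for description after the values were seen. For WT, *Osmr* RPKM over *Lifr* RPKM was 0.0769 ± 0.0076 (SD, n = 3), and for WT + TAM 0.0943 ± 0.0071 (SD, n = 4). It was 0.195 ± 0.036 (SD, n = 3) for *Mtm1* KO and 0.259 ± 0.048 (SD, n = 4) for KO + TAM. The highest library of either WT group reached 0.104 and the lowest of either *Mtm1* KO group 0.170. The library labelled WT replicate 1 fell between these at 0.120, and KO replicate 12 stood at 0.324, above all others. By itself *Osmr* overlapped between genotypes and was not called, at 0.24 in untreated and 0.61 in treated mice. *Lifr* was called lower in both, at -1.10 and -0.86, so the ratio largely restates its difference.

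**Figure D3:**
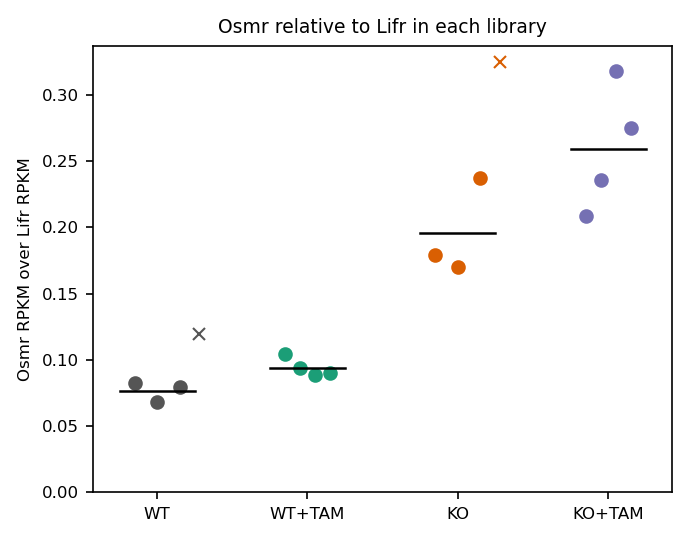
Ratio of *Osmr* RPKM to *Lifr* RPKM in each library, by group. Filled points are the 14 libraries used, bars their means, and crosses the left-out libraries, labelled WT replicate 1 or KO replicate 12. All libraries of the 2 WT groups used lie at or below 0.104, and those of the *Mtm1* KO groups at or above 0.170.

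Other ligands and receptors of the family gave no call in either comparison of genotypes with edgeR and TMM scaling. With library size alone as the scaling, 1 receptor gene was called in untreated mice, and 2 receptor genes and 1 ligand gene in treated mice. That scaling called 1163 of 14740 and 1874 of 14563 genes in all. Of 9 further ligand genes, 4 passed the filter, namely *Cntf*, *Ctf1*, *Clcf1* and *Ebi3*, and *Ctf1*, for cardiotrophin, had the highest RPKM, at 7.56. *Ctf1* differed by -0.19 (SE 0.18) in untreated and -0.08 (SE 0.22) in treated mice. *Il6* itself was below the filter, at no more than 0.400 CPM in any library. Of 7 further receptor genes 5 passed. *Il11ra1*, the IL11 receptor chain, was the most abundant, at 16.2 RPKM, and its log2 fold changes were 0.82 (SE 0.20, adjusted p = 0.0328) and 0.48 (SE 0.16, adjusted p = 0.0660, edgeR). The median of the receptor genes was 0.62 in untreated and 0.48 in treated mice, with 2 and 4 of 5 at an unadjusted p of at most 0.05, and DESeq2 called 2 and 1 of them. Over all genes, 4431 of 14740 and 4700 of 14563 had that unadjusted p, and DESeq2 called 1678 and 1995. The ligand genes had medians of 0.37 and 0.17, with 0 and 1 of 4 at that unadjusted p and 0 calls with DESeq2.

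Among 7 tested JAK and STAT genes outside the set, *Stat5b*, which carries growth hormone signals, was lower in *Mtm1* KO, and no other was called with edgeR and TMM scaling. DESeq2 and library size alone as the scaling each gave 2 calls in either comparison of genotypes. Over all genes, edgeR with TMM called 3.6% of 14740 and 6.72% of 14563. DESeq2 called 1678 and 1995 of them, and library size alone 1163 and 1874. *Stat5b* was 198, 204 and 216 CPM in WT and 100, 85.3 and 97.4 in *Mtm1* KO, a log2 fold change of -1.10 (SE 0.12, adjusted p = 0.00131), and -1.34 (SE 0.10, adjusted p = 4.74e-05, edgeR) with tamoxifen. The list's median was 0.15 in untreated mice and -0.01 in treated mice (0.27 with library size alone as the scaling), against 0.02 and -0.01 over all genes.

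Other inhibitors of the pathway did not share the pattern of *Socs3*. Of 13 tested, 0 were called in *Mtm1* KO against WT with edgeR (6 at an unadjusted p of at most 0.05, and 2 with DESeq2), with 9 higher and 4 lower values and a median of 0.22. Of all 14740 genes, 4431 had that unadjusted p and DESeq2 called 1678. In treated mice 1 was called, *Ptpn2*, which encodes a phosphatase acting on JAKs and STATs, at 0.74 (SE 0.13, adjusted p = 0.00369, edgeR), beside 3.42% of all genes called higher. It was 12.7, 10.3, 12.8 and 13.6 CPM in WT + TAM and 18.7, 19.4, 23.8 and 20.4 in KO + TAM. With tamoxifen in *Mtm1* KO, none of the 13 had groups that did not overlap, and their median of -0.0047, that of *Ptpn11* (SE 0.16), the most abundant of them, lay beside -0.01 over all genes.

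Of 23 tested STAT3 target genes, 3 were called higher in *Mtm1* KO than in WT and 0 lower, beside 1.91% of all genes called higher, with 17 higher values and a median of 0.58 (20 higher with library size alone as the scaling), against 0.02 over all genes. All 3 have other known inducers. *Timp1*, an inhibitor of matrix proteases, was 3.44, 1.74 and 2.03 CPM in WT and 26.3, 46.1 and 37.0 in *Mtm1* KO, a log2 fold change of 3.94 (SE 0.28, adjusted p = 2.66e-04, edgeR). The metallothionein genes *Mt1* and *Mt2*, which also answer to metals and glucocorticoids, stood at 3.29 (SE 0.28, adjusted p = 6.02e-04) and 4.81 (SE 0.38, adjusted p = 5.83e-04). *Mt2* was 6.95 to 11.6 CPM in WT and 121 to 401 in *Mtm1* KO. The library labelled WT replicate 1 lay with *Mtm1* KO for *Timp1*, at 25.3 CPM, and near WT for *Mt2*, at 12.9, and with all 16 libraries 2 target genes were called.

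In treated mice 4 targets were called higher and 0 lower, beside 3.42% of all genes called higher, with 15 of 23 values higher and a median of 0.36. They were *Timp1* (3.21, SE 0.45), the AP-1 subunit gene *Junb* (1.98, SE 0.28), *Myc* (1.26, SE 0.20) and the IL4 receptor gene *Il4ra* (0.95, SE 0.17), with adjusted p-values from 0.00135 to 0.00417 (edgeR). DESeq2 called 6 and 7 targets in the 2 comparisons, beside 1678 of 14740 and 1995 of 14563 genes in all. With tamoxifen in *Mtm1* KO, the median of the targets was 0.03, and 2 genes, *Il4ra* and *Mcl1*, lay higher without overlap and *Hp*, for haptoglobin, lower, beside 7.57% of all genes without overlap. *Il4ra* was 13.2 to 13.6 CPM in *Mtm1* KO and 13.9 to 24.1 in KO + TAM. Of the 23 targets, 14 had higher and 9 lower values there. In WT, 5 targets lay higher and 2 lower with tamoxifen without overlap, beside 11.6% of all genes without overlap in either direction, among them *Mt2*, at 6.95 to 11.6 CPM in WT and 14.6 to 62.6 in WT + TAM.

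Interferon-response genes were read as well, since *Socs1* is also known to hold interferon signals back. All 14 tested had higher values in *Mtm1* KO than in WT (13 of 14 with all 16 libraries), as had 7719 of 14740 genes in all. Their median was 0.55, against 0.02 over all genes. Of the 14, 1 was called, beside 1.91% of all genes called higher. That gene, the chemokine gene *Cxcl10*, was 0.369, 0.339 and 0.702 CPM in WT and 3.63, 3.54 and 4.46 in *Mtm1* KO, a log2 fold change of 3.05 (SE 0.36, adjusted p = 0.00165, edgeR). In treated mice it stood at 3.99 (SE 0.47, adjusted p = 3.92e-04), the 1 call among 13 tested, beside 3.42% of all genes called higher. With tamoxifen in *Mtm1* KO, 13 of 14 had lower values, with a median of -0.45, and *Gbp2*, *Cxcl9* and *Usp18* were lower without overlap, beside 7.57% of all genes without overlap in either direction. *Isg15*, the most abundant, stood there at -0.61 (SE 0.32). *Cxcl9* was 4.94, 5.21 and 3.66 CPM in *Mtm1* KO and 2.198, 1.83, 1.77 and 3.15 in KO + TAM.

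**Figure D4:**
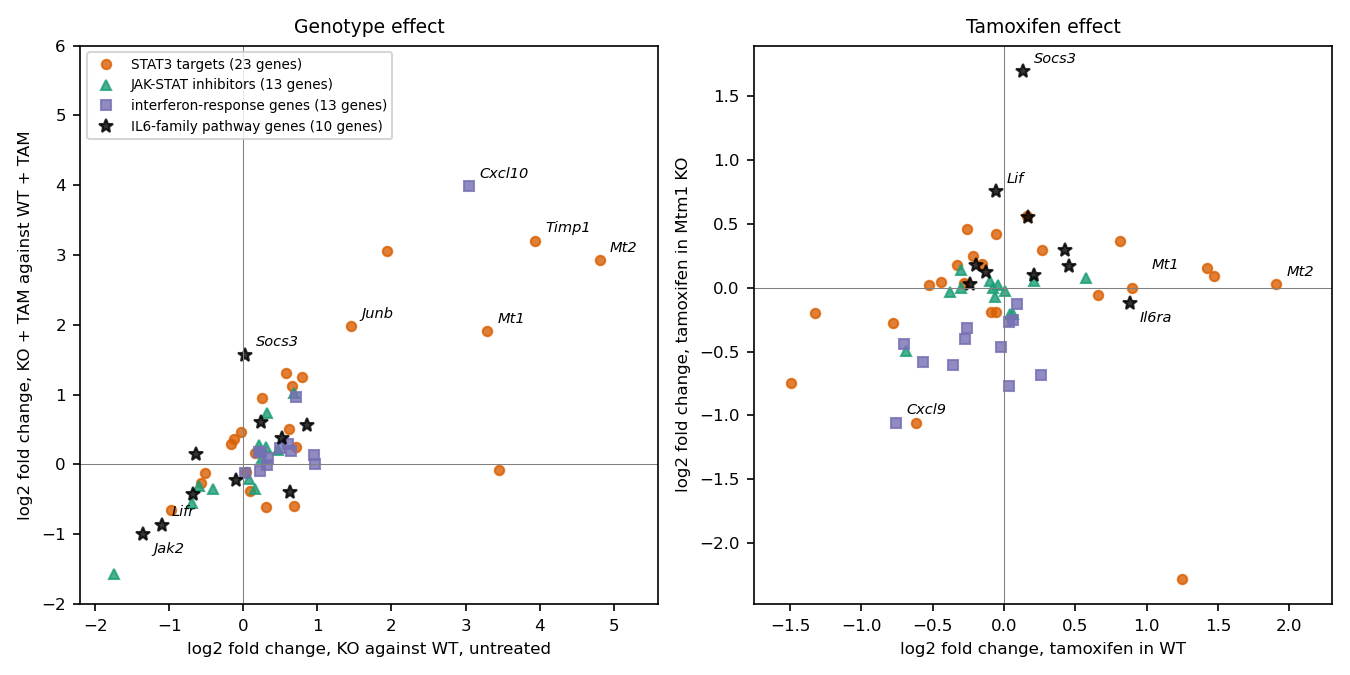
Log2 fold changes of the 10 pathway genes and of 3 related lists, with the genotype effect in untreated (horizontal) and tamoxifen-treated mice (vertical) on the left, and the tamoxifen effect in WT (horizontal) and in *Mtm1* KO (vertical) on the right. *Socs3* stands highest on the right, at 0.14 and 1.69, and *Timp1*, *Mt2* and *Cxcl10* lie far up and to the right in the left panel. Points are genes that passed the filter in both comparisons of a panel, and the numbers in the key are those of the left panel.

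Markers of other cell types were read beside *Socs3*. The 11 leukocyte markers, led by the lysozyme gene *Lyz2*, summed to 60.0 to 72.8 RPKM in WT, 30.8 to 75.0 in WT + TAM, 107 to 253 in *Mtm1* KO and 95.6 to 181 in KO + TAM. The sum of 253 was that of KO replicate 10 alone, and KO replicates 9 and 11 stood at 107 and 117. These markers were thus higher in both *Mtm1* KO groups, which overlapped each other. None of the 7 tested in untreated or 8 in treated mice was called with edgeR (5 and 5 at an unadjusted p of at most 0.05, and 2 and 2 calls with DESeq2). Over all genes, 4431 of 14740 and 4700 of 14563 had that unadjusted p, and DESeq2 called 1678 and 1995. The 8 fibroblast markers, led by *Dcn*, summed to 1017 to 1411 RPKM in *Mtm1* KO and 981 to 1058 in KO + TAM. The 6 endothelial markers, led by *Cdh5*, summed to 61.8 to 90.4 and 44.9 to 63.3, which overlapped. With tamoxifen all 6 had lower values in *Mtm1* KO, with a median of -0.29 and 1 without overlap. In WT all 6 were lower too, with a median of -0.48 and 2 without overlap. Over all genes 7.57% and 11.6% did not overlap in these contrasts. The satellite cell, fat cell and red blood cell markers, led by *Cdh15*, *Adipoq* and *Hbb-bs*, overlapped between *Mtm1* KO and KO + TAM as well. Fibroblast, endothelial, satellite, fat and red blood cell markers gave no call in either comparison of genotypes with edgeR, with 0 to 5 per list at an unadjusted p of at most 0.05 and 0 to 2 calls with DESeq2. With library size alone as the scaling, 1 fibroblast and 1 leukocyte marker were called in untreated mice and 4 and 3 in treated mice, beside 1163 of 14740 and 1874 of 14563 genes in all. Their part in the *Socs3* difference was not tested.

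Immediate early genes, which respond to stress within minutes, were also read beside *Socs3*. The 11 genes, led by *Nr4a1*, summed to 289 to 468 RPKM in *Mtm1* KO and 310 to 389 in KO + TAM, which overlapped, and 8 of 11 had lower values in KO + TAM. *Egr1* was called higher in *Mtm1* KO than in WT at 1.82 (SE 0.25, adjusted p = 0.00335) and in treated mice at 2.39 (SE 0.29, adjusted p = 7.43e-04, edgeR). The first of these calls was lost with all 16 libraries, and DESeq2 called 5 and 4 genes of this list. Over all genes, edgeR called 1.91% higher in untreated mice, and 3.42% higher and 3.3% lower in treated mice. DESeq2 called 1678 of 14740 and 1995 of 14563. *Ier3* was called higher and *Nr4a1* lower in treated mice, at 1.46 (SE 0.25, adjusted p = 0.00371) and -0.76 (SE 0.15, adjusted p = 0.00693). In the same comparison the muscle genes *Ckm*, *Atp2a1* and *Myh4* were called lower, at -0.87, -0.90 and -1.24. They were 3 of 9 muscle markers, beside 3.3% of all genes called lower.

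The genes whose levels followed *Socs3* most closely over the 14 libraries were *Hnrnpk*, for an RNA-binding protein, *Fbln2*, for the matrix protein fibulin-2, *Bbs5*, for a cilium protein, *Srsf3*, for a splicing factor, and *Gria1*, for a glutamate receptor subunit. Their Pearson correlations with *Socs3* on log2 CPM were 0.893, 0.881, 0.853, 0.853 and 0.852, the highest of 15546 genes outside the set. These are descriptions over libraries of 4 groups, and without the 4 KO + TAM libraries they were 0.331, 0.185, 0.496, 0.398 and 0.241 (n = 10). *Fbln2* was 62.5 to 67.9 CPM in WT, 69.6 to 80.6 in WT + TAM, 75.7 to 94.1 in *Mtm1* KO and 108 to 128 in KO + TAM. *Gria1* was at or below 0.301 CPM outside KO + TAM and 1.51 to 3.97 in it. Within the set, *Stat3* and *Osmr* had the highest correlations with *Socs3* over the 14 libraries, at 0.733 and 0.703, and *Jak2* and *Lifr* the lowest, at -0.438 and -0.431. Within the 4 KO + TAM libraries alone these were 0.844, 0.588, -0.186 and 0.137. *Il6ra* had the highest there, at 0.969, against -0.031 over the 14.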

How the data were processed

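RNA from quadriceps of 16 mice was read from the deposited table of raw counts, made by the authors with STAR and HTSeq on GRCm38. The authors' RPKM table rests on the same counts scaled by total count and gene length (largest deviation 0.00263, as a relative value, over 8679 genes). The submitters' processing notes name bcl2fastq 2.17, STAR 2.5.0c and Cufflinks 2.2.1. For the annotation and the strand setting, the sources used here give nothing. Without strand, *Il6ra* shares 242 exon bases (2.8%) with an antisense gene, and *Stat3* 72 with *Stat5a*, by GENCODE.

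The pairs of groups were fitted with R 4.3.3 and edgeR 4.0.16 (TMM, filterByExpr with minimum count 10 and total 15, quasi-likelihood test, Benjamini-Hochberg over all genes, adjusted p of at most 0.01), with no covariate, on the 14 libraries of the study. No source gives a reason for leaving out the other two. CPM used TMM factors over 16 libraries, and correlations a prior count of 2. Alternatives used DESeq2 1.42.0, limma 3.58.1 on log2(RPKM + 0.1) and log2(RPKM + 1), other scalings and filters, 1 fit of the 4 groups, and leaving out each library.

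The genes and lists were chosen with earlier results of these data known. Named genes are the 10, *Mtm1*, list genes called in a genotype comparison, the most abundant gene of each list, and the 5 most like *Socs3*. Others are list genes with groups that did not overlap, or tested family members, named after their values were seen. All 141 list symbols matched, 1 by gene ID. No 2 libraries had identical counts. Replicates are separate mice as far as the labels tell. Precision for low genes is limited by counting, with *Lif* at 9 to 58 counts per library.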

Additional observations from a re-analysis of the deposited data

Results flagged for a closer look

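Single libraries lay far from the other libraries of their group, by Dixon's test over 40 groups of 4 libraries, where chance gives about 1 in 20. *Socs1* was 3.82 CPM in the library labelled WT replicate 1, against 1.25 to 1.40 in the others. *Osmr* was 3.66 CPM in the same library, against 5.58 to 5.81, and 8.69 CPM in WT + TAM replicate 6, against 5.46 to 5.85.

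*Il6ra* differed in opposite directions between genotypes without and with tamoxifen. Its mean CPM was higher in *Mtm1* KO than in WT by 0.61 on the log2 scale, with every *Mtm1* KO library above the WT mean, and was lower in KO + TAM than in WT + TAM, with every KO + TAM library below the WT + TAM mean. The difference was not tested, and the groups overlapped in both comparisons.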

How the results depend on the processing

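No paired analysis was possible because no replicate number was shared by 2 groups and, although the study's supplement calls the mice littermates, no source used here ties a library to a litter, so a shared litter between groups was not modelled. Of the 10 genes, 2 were called in *Mtm1* KO against WT, *Jak2* and *Lifr*, and the count was 0 with 16 libraries, 0 and 1 (*Jak2*) with limma on log2(RPKM + 0.1) and log2(RPKM + 1), and 0 to 2 without each library in turn. It was 3, with *Jak1*, under DESeq2 or at an adjusted p of at most 0.05. In treated mice 2 of 9 were called, and the count was 1 (*Stat3*) with library size alone as the scaling, 0 and 0 with limma, and 0 to 2 without each library. *Jak2* and *Lifr* kept a negative sign under every alternative run. *Socs3* with tamoxifen in *Mtm1* KO ran from 1.33 to 1.89 over 16 alternatives, and in WT from -0.02 to 0.42.

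Signs turned for genes near 0. *Socs3* in *Mtm1* KO against WT ran from -0.16 to 0.35 over 15 alternatives, none of which called it. Without each library it ran from -0.16 to 0.25, at -0.14 without WT replicate 2, -0.02 without WT replicate 4 and -0.16 without KO replicate 9. *Il6st* became 0.21 with library size alone, 0.021 with 16 libraries, and 0.21 and 0.20 with limma, and in treated mice 0.052 under library size and 0.053 and 0.050 under limma. *Lif* in treated mice ran from -0.29 to 0.51 without each library, at -0.07 without WT + TAM replicate 6, -0.29 without KO + TAM replicate 15 and -0.03 without replicate 16. Over all genes, library size alone moved the median log2 fold change from 0.02 to 0.33 in *Mtm1* KO against WT and from -0.01 to 0.27 in treated mice. Calls over all genes ran from 182 (without KO replicate 11) to 1678 (DESeq2) around 531 in *Mtm1* KO against WT, with 211 for 16 libraries, from 424 (without KO + TAM replicate 15) to 1995 (DESeq2) around 979 in treated mice, and from 0 to 72 for KO + TAM against *Mtm1* KO. The cause of these differences between settings was not tested. The list counts under other scalings were added after seeing the data.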
